A study of Saccharomyces cerevisiae with 18 samples.

Results

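The 57 genes described here encode the enzymes that build histidine, the branched-chain amino acids, lysine, the aromatic amino acids, serine, threonine, asparagine, glutamate and glutamine in *Saccharomyces cerevisiae*, together with the pathway activator *LYS14* and the general regulator *GCN4*. They were taken by name from a fixed list, drawn up with earlier results of these data known, and are 57 of the 5543 genes named on the array. All 57 were on the array with 2 spots each. The study compared giant colonies of 3 isogenic strains on solid glycerol medium, harvested on days 4 and 7. BR-RF is the feral strain, 1 subclone of BR-S that regained structured colonies in a long static culture. BR-F is the wild strain with structured biofilm colonies, and BR-S is its smooth domesticated derivative. On each array, polyA RNA of 2 strains was hybridised together in opposite dyes, giving 3 couples of strains, whose ratios are written BR-RF/BR-F, BR-F/BR-S and BR-RF/BR-S, on 2 days with 3 arrays each.

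Amino acid synthesis starts from ammonium, which yeast fixes in glutamate and glutamine, and the amino groups are then passed on by aminotransferases to carbon skeletons from glycolysis and the TCA cycle. The enzymes of most of these pathways are under general amino acid control: when uncharged tRNA accumulates, the kinase Gcn2 acts on translation initiation, and the activator Gcn4 is made and switches on their genes. Genes of ammonium fixation and some aminotransferases respond in addition to the nitrogen source. Several steps are catalysed by paralog pairs, whose spots may share signal on arrays of whole open reading frames, so values of such pairs are uncertain in how they divide.

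All ratios are log2 values, given with ± the standard error of the fit (SE, from 2 biological replicates), for which limma shared the spread among the couples. The deposited record gives arrays 1 and 2 as dye-swapped hybridisations of one RNA preparation, and array 3 as a second biological replicate. The study's methods instead call all 3 arrays biological replicates. The deposited record was followed here, and 3 arrays as replicates served as an alternative. Arrays 1 and 2 were therefore averaged. A gene was called when its adjusted p was under 0.05 in limma, over all genes measured in both replicates. The p-values cover only the spread between these replicates. Across all genes, the replicates correlated at r = 0.353 to 0.756, and for the 57 members at 0.471 to 0.790, genes not being independent replicates. Arrays 1 and 2 correlated at 0.301 to 0.610, against 0.159 to 0.841 for pairs with array 3. *FLO11*, the adhesin of structured yeast colonies, gave no check of the labels. It had a value on only 1 or 2 arrays of each couple and day, with ratios of -0.27 to 0.21. None was called, and those of BR-F/BR-S and BR-RF/BR-S on day 4 were not tested. The study's northern blot showed *FLO11* RNA in BR-F and BR-RF and low levels in BR-S, a difference that these spots did not show. In whole-colony RNA, fewer cells of a kind and less RNA per cell cannot be told apart. The 3 couples of a day share their strains, so that a gene that is high in BR-F alone appears in 2 couples.

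Among the 336 ratios tested, 49 were called, 26 higher and 23 lower. They fell on 23 of the 57 members, and 34 members were called in no couple on either day. In at least 1 couple, 11 members were called on day 4 and 21 on day 7, against 508 and 1391 of the 5543 genes. The share of all genes called in any of the 6 comparisons was not counted. Counts of members called anywhere, also those by pathway below, thus have no such share beside them. In BR-RF/BR-F on day 4, 9 of 57 members were called (3 higher, 6 lower), against 6.08% of all genes tested (2.93% higher, 3.15% lower). On day 7, 15 of 56 were called (6 higher, 9 lower), against 15.1% of all genes (7.74% higher, 7.32% lower). In BR-F/BR-S, 5 of 56 members were called on day 4, all higher, against 4.69% of all genes (2.94% higher, 1.75% lower), and 9 of 57 on day 7 (6 higher, 3 lower), against 11.1% (6.06% higher, 5.08% lower). In BR-RF/BR-S, 4 of 56 members were called on day 4, all higher, against 4.8% of all genes (2.98% higher, 1.82% lower), and 7 of 54 on day 7 (2 higher, 5 lower), against 16% (7.27% higher, 8.76% lower). At an unadjusted p under 0.05, 15 and 21 members passed in BR-RF/BR-F on days 4 and 7, against 20.2% and 28.8% of all genes, 15 and 21 in BR-F/BR-S, against 17.9% and 27.3%, and 11 and 18 in BR-RF/BR-S, against 17.2% and 32.3%. The share of members called was nearest to that of all genes in BR-RF/BR-S on both days. The medians of the members lay between -0.11 and 0.13, and those of all genes between -0.01 and 0.00, all close to 0. The 6 ratios that were not tested belonged to *HIS7* (3), *LYS20*, *TRP1* and *ARO4*, which lacked a usable value in a replicate.

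**Figure D1:**
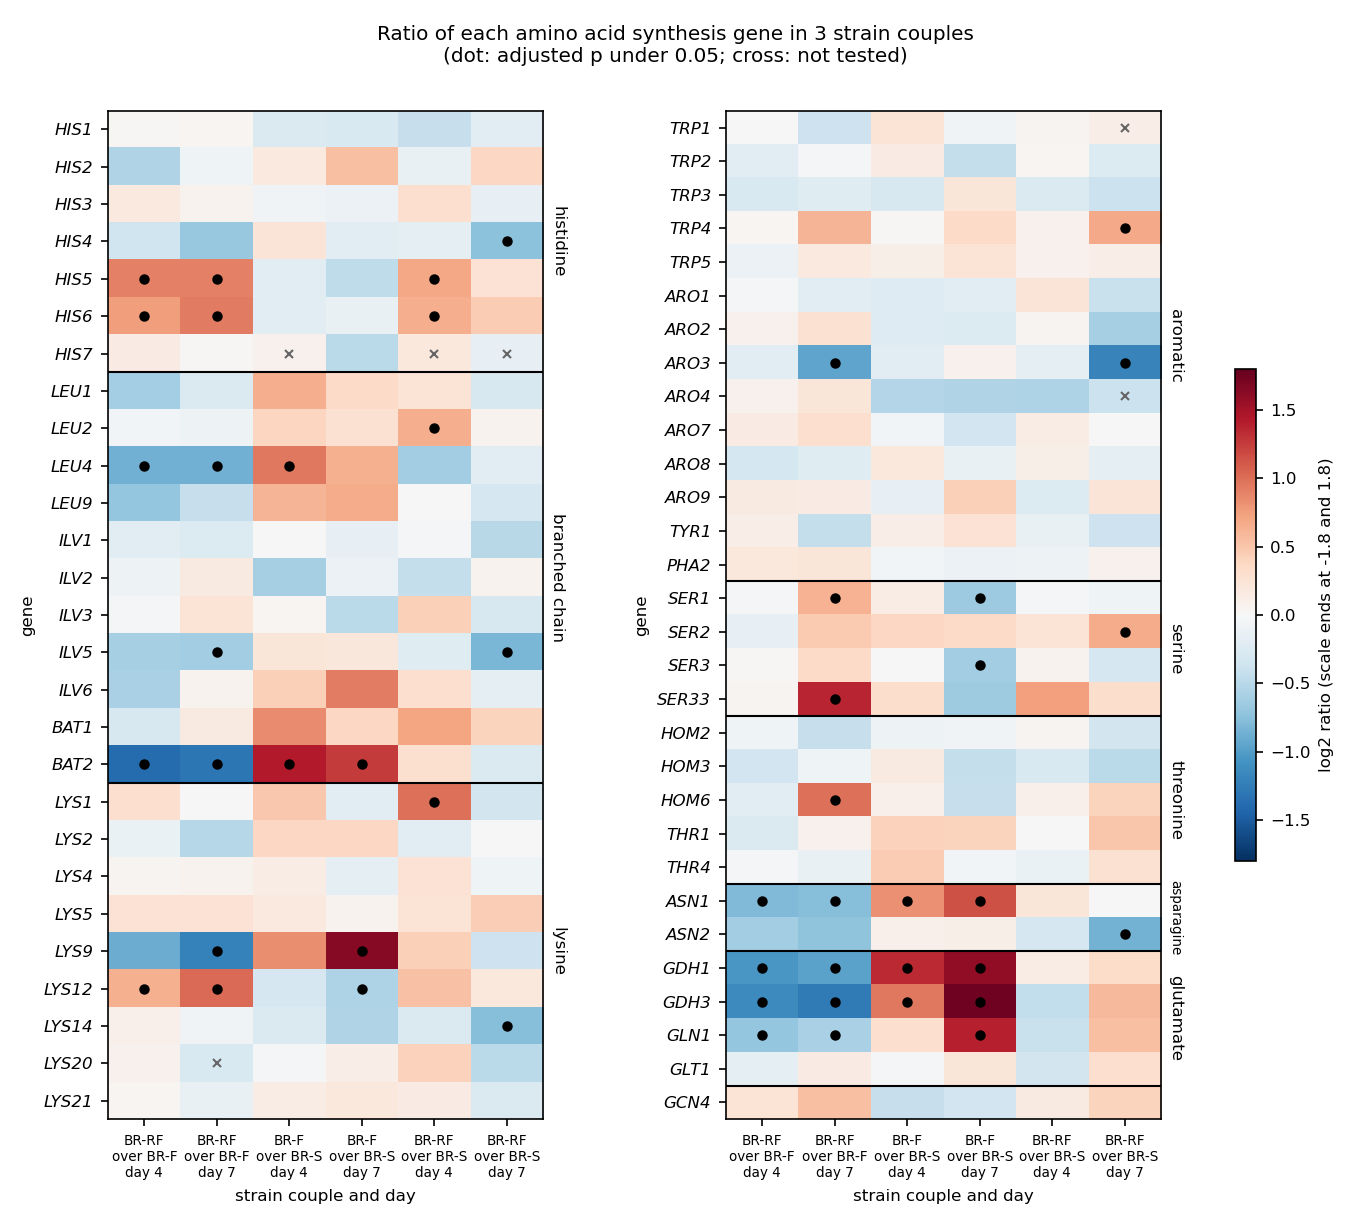
Log2 ratios of the 57 genes (vertical axis, grouped by pathway) in the 3 strain couples on days 4 and 7 (horizontal axis), red for higher and blue for lower in the first-named strain. Dots mark the 49 calls at an adjusted p under 0.05 and crosses the 6 ratios not tested. The glutamate genes *GDH1*, *GDH3* and *GLN1*, with *ASN1* and *BAT2*, are blue in BR-RF/BR-F and red in BR-F/BR-S, and most aromatic genes are pale throughout.

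In both couples with BR-F, the genes of ammonium fixation had the largest median ratios of all the pathways. *GDH1* and *GDH3*, the paralogous NADP-dependent glutamate dehydrogenases, were higher in BR-F than in either other strain on both days, and *GLN1*, glutamine synthetase, on day 7. The median of the 4 glutamate genes was -0.88 on day 4 and -0.78 on day 7 in BR-RF/BR-F, 0.63 and 1.496 in BR-F/BR-S, and -0.36 and 0.43 in BR-RF/BR-S. *GLT1*, the glutamate synthase of the same group, was called nowhere and had ratios of -0.33 to 0.31.

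*GDH1* had ratios of -1.19, -0.96 and -1.03 on the 3 arrays of BR-RF/BR-F on day 4, and of -1.498, -0.65 and -0.85 on day 7. The BR-F/BR-S arrays gave it 1.58, 1.34 and 1.22 on day 4, and 1.73, 1.89 and 1.38 on day 7. All 12 of these arrays placed BR-F above the other strain. The fitted ratios were -1.05 ± 0.17 (adjusted p = 0.00732) and -0.96 ± 0.17 (adjusted p = 0.00385) in BR-RF/BR-F, and 1.34 ± 0.17 (adjusted p = 0.00144) and 1.60 ± 0.17 (adjusted p = 0.000526) in BR-F/BR-S. In BR-RF/BR-S the ratios of 0.14 and 0.32 were not called. On day 7, 4 of the 6 spots of *GDH1* in BR-RF/BR-F and 2 of 6 in BR-F/BR-S were partly saturated.

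*GDH3* showed the largest called ratio of all members, 1.75 ± 0.20 (3.36-fold, adjusted p = 0.00074) in BR-F/BR-S on day 7, from 1.61, 2.16 and 1.61 on the arrays. On day 4 its arrays gave 1.05, 0.81 and 0.97 (0.95 ± 0.20, adjusted p = 0.0225). In BR-RF/BR-F the arrays gave -1.15, -1.46 and -0.98 on day 4 (-1.14 ± 0.20, adjusted p = 0.0102) and -0.69, -1.02 and -1.70 on day 7 (-1.28 ± 0.20, adjusted p = 0.00209). BR-F was again the higher strain on all 12 arrays. BR-RF/BR-S gave -0.44 on day 4 and 0.59 on day 7 (adjusted p = 0.0721), neither called. The median of up to 10 measured genes on each side of *GDH3*, on chromosome I, was -0.26 and -0.47 in BR-RF/BR-F on days 4 and 7, and their part in the ratio of *GDH3* was not tested.

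*GLN1* differed less on day 4 and more on day 7 in BR-F/BR-S. Its arrays gave 0.77, 0.30 and 0.08 on day 4 (0.31 ± 0.17, not called) and 1.61, 1.34 and 1.32 on day 7 (1.40 ± 0.17, adjusted p = 0.000877). The change between the days, 1.09, did not pass the test over all genes (adjusted p = 0.125). In BR-RF/BR-F the arrays gave -0.33, -1.15 and -0.65 on day 4 (-0.70 ± 0.17, adjusted p = 0.0358), and -0.20, -1.08 and -0.54 on day 7 (-0.59 ± 0.17, adjusted p = 0.0382). All of them lay below 0, but they lay far apart, with array 1 nearest to 0 on both days. These BR-RF/BR-F calls were lost in 8 of 16 alternative settings on day 4 and in 8 of 15 on day 7.

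Of the 2 asparagine synthetases, *ASN1* was higher in BR-F than in either other strain on both days. The arrays gave -0.39, -1.02 and -0.88 in BR-RF/BR-F on day 4 (-0.79 ± 0.14, adjusted p = 0.0111), and -0.92, -0.72 and -0.72 on day 7 (-0.77 ± 0.14, adjusted p = 0.0048). For BR-F/BR-S they read 1.15, 0.85 and 0.66 on day 4 (0.83 ± 0.14, adjusted p = 0.00852), and 1.30, 0.79 and 1.23 on day 7 (1.14 ± 0.14, adjusted p = 0.00109). In BR-RF/BR-S, the ratios of 0.22 and 0.01 were not called. Its paralog *ASN2* was called only in BR-RF/BR-S on day 7, at -0.85 ± 0.23 (adjusted p = 0.0315). *ASN2* had -0.63 and -0.73 in BR-RF/BR-F, not called, and 0.09 and 0.10 in BR-F/BR-S.

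Array 3 is the whole of the second biological replicate, and without it the day 4 calls of *GDH1* (-1.08), *GDH3* (-1.31), *GLN1* (-0.74) and *ASN1* (-0.70) in BR-RF/BR-F were lost, as were those of *GLN1* on day 7 (-0.64), *GDH3* in BR-F/BR-S on day 4 (0.93) and *ASN2* in BR-RF/BR-S on day 7 (-0.90). The calls of *GLN1* in BR-RF/BR-F also ended without array 2 (-0.49 on day 4, -0.37 on day 7), and that of *ASN2* without array 1 (-0.81).

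**Figure D2:**
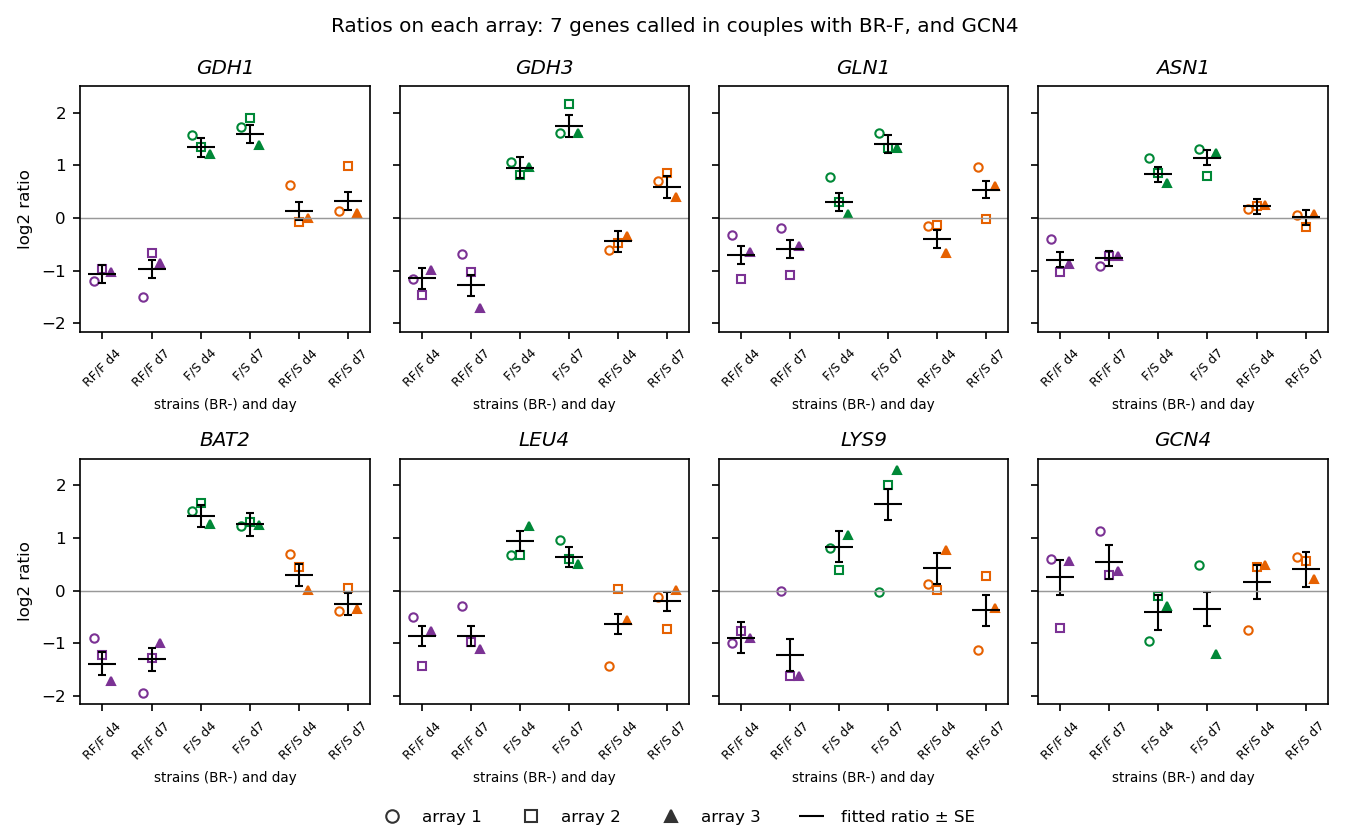
Log2 ratios (vertical axis) of *GDH1*, *GDH3*, *GLN1*, *ASN1*, *BAT2*, *LEU4*, *LYS9* and *GCN4* on each array of the 3 strain couples on days 4 and 7 (horizontal axis). Circles, squares and triangles are arrays 1, 2 and 3, and bars are fitted ratios with their SE. For *GDH1*, *GDH3*, *ASN1* and *BAT2*, all arrays of BR-RF/BR-F lie below 0 and all arrays of BR-F/BR-S above it, and *GCN4* has arrays on both sides.

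In the branched-chain group, 4 of 11 genes were called somewhere. In BR-RF/BR-F on day 4, all 11 ratios were below 0, with a median of -0.58, and 2 were called, but this rested on array 3. It had all 11 below 0, with a median of -0.77, whereas biological replicate 1 (arrays 1 and 2) had 6 below and 5 above 0, with a median of -0.07. In BR-F/BR-S on day 4, 10 of 11 were above 0, with a median of 0.43, and 2 were called. Here the replicates had medians of 0.53 and 0.27. On day 7 the median was 0.34 in BR-F/BR-S, and -0.24 in BR-RF/BR-F, where the replicates differed in sign (-0.40 and 0.13). In BR-RF/BR-S the medians were 0.25 on day 4, where the replicates had 0.10 and -0.06, and -0.26 on day 7.

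*BAT2*, the cytosolic branched-chain aminotransferase, had the largest ratios of this group. The arrays gave -0.90, -1.23 and -1.71 in BR-RF/BR-F on day 4 (-1.39 ± 0.21, adjusted p = 0.00578), and -1.95, -1.27 and -1.001 on day 7 (-1.31 ± 0.21, adjusted p = 0.00243). Those of BR-F/BR-S gave 1.52, 1.66 and 1.25 on day 4 (1.42 ± 0.21, adjusted p = 0.00376), and 1.23, 1.30 and 1.25 on day 7 (1.26 ± 0.21, adjusted p = 0.00459). All of these arrays placed BR-F above the other strain, and the folds of the fitted ratios lay between 2.39 and 2.68. In BR-RF/BR-S, its ratios of 0.29 and -0.26 were not called. *BAT1*, the mitochondrial paralog, was called nowhere. It had -0.29 and 0.16 in BR-RF/BR-F, 0.85 (adjusted p = 0.0756) and 0.37 in BR-F/BR-S, and 0.71 (adjusted p = 0.145) and 0.40 in BR-RF/BR-S.

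*LEU4*, which encodes an alpha-isopropylmalate synthase at the entry of leucine synthesis, was below BR-F in BR-RF colonies of either age. Its arrays gave -0.51, -1.43 and -0.76 on day 4 (-0.86 ± 0.19, adjusted p = 0.0234) and -0.28, -0.97 and -1.11 on day 7 (-0.87 ± 0.19, adjusted p = 0.0106). Against BR-S, BR-F had 0.68, 0.67 and 1.22 on day 4 (0.95 ± 0.19, adjusted p = 0.0164), and 0.95, 0.61 and 0.50 on day 7 (0.64 ± 0.19, not called). These 12 arrays placed BR-F higher. In BR-RF/BR-S, *LEU4* had -0.63 on day 4, from arrays at -1.43, 0.04 and -0.56, and -0.21 on day 7, neither called. The other 2 couples sum to 0.09 on day 4, which the direct ratio missed by -0.71, more than for any other member on that day. The paralog *LEU9* had ratios of the same sign, -0.70 and -0.41 in BR-RF/BR-F and 0.62 and 0.67 in BR-F/BR-S, none of them called. *LEU2*, beta-isopropylmalate dehydrogenase, was called only in BR-RF/BR-S on day 4, at 0.66 ± 0.16 (adjusted p = 0.0404).

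*ILV5*, the acetohydroxyacid reductoisomerase, was called lower in BR-RF than in both other strains on day 7, but not under every normalisation. The arrays gave -1.03, -0.83 and -0.32 in BR-RF/BR-F (-0.63 ± 0.19, adjusted p = 0.0488) and -1.13, -0.69 and -0.75 in BR-RF/BR-S (-0.83 ± 0.19, adjusted p = 0.0161). On day 4, BR-RF/BR-F had nearly the same ratio, -0.60, not called, and BR-RF/BR-S had -0.21. In BR-F/BR-S its ratios were 0.22 and 0.21. With print-tip loess the day 7 ratios were -0.30 in BR-RF/BR-F and -0.28 in BR-RF/BR-S and neither was called, and the BR-RF/BR-F call was lost in 7 of 16 settings in all. *ILV5* lies on the right arm of chromosome XII, and the genes beside it had medians of -0.46 and -0.67 in the same couples on day 7, close to its own ratios. The study reported a group of genes lowered in BR-RF, against both other strains, in a region of chromosome XII. Whether the neighbourhood has a part in the ratio of *ILV5* was not tested. *ILV6*, the regulatory subunit of acetolactate synthase, was not called, and its arrays of BR-RF/BR-S on day 7 ranged from -2.58 to 1.15. On 15 of 18 arrays its normalised ratio of Cy5 to Cy3 was below 0, whichever strain was in Cy5. Such a lean was also seen for *ARO8* (15 of 18 below 0), *HOM2* (15 above) and *THR4* (16 above).

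Without array 3, the calls of *BAT2* in BR-RF/BR-F on day 4 (-1.06) and in BR-F/BR-S on day 7 (1.26), of *LEU4* in BR-RF/BR-F (-0.97 on day 4, -0.63 on day 7) and in BR-F/BR-S on day 4 (0.67), of *LEU2* (0.67) and of *ILV5* in BR-RF/BR-S (-0.91) were lost. Without array 2, those of *LEU4* (-0.63 on day 4, -0.70 on day 7) and *ILV5* (-0.68) in BR-RF/BR-F were lost.

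The 9 lysine genes did not move together. Their medians lay between -0.26 and 0.25 in all couples and days, but 4 genes were called, among them genes that went opposite ways. *LYS9* encodes the saccharopine dehydrogenase of the next-to-last step, and was lower in BR-RF than in BR-F colonies and higher in BR-F than in BR-S on day 7. Its arrays gave -0.01, -1.62 and -1.62 in BR-RF/BR-F (-1.22 ± 0.30, adjusted p = 0.019) and -0.03, 1.99 and 2.29 in BR-F/BR-S (1.64 ± 0.30, adjusted p = 0.0064). Array 1 thus read near 0 in both couples while arrays 2 and 3 lay far from it. *LYS9* was the only call in which the 3 arrays did not share a sign. On day 4 the ratios were -0.89 and 0.83, not called, with all 6 arrays pointing the same way. In BR-RF/BR-S, *LYS9* had 0.42 and -0.37, not called, and on day 7 the other 2 couples sum to 0.42, which the direct ratio missed by -0.79. Without array 2 or array 3 both calls were lost, at -0.82 in BR-RF/BR-F in either case and at 1.13 and 0.98 in BR-F/BR-S.

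*LYS12*, the homoisocitrate dehydrogenase of the upper part of the pathway, went the other way. Its arrays gave 0.84, 0.25 and 0.72 in BR-RF/BR-F on day 4 (0.63 ± 0.14, adjusted p = 0.0282), and 1.42, 0.80 and 0.94 on day 7 (1.03 ± 0.14, adjusted p = 0.00126). In BR-F/BR-S on day 7 they gave -0.43, -0.64 and -0.59 (-0.56 ± 0.14, adjusted p = 0.0314). BR-F was the lower strain on all 9 of these arrays. *LYS1*, the saccharopine dehydrogenase of the last step, was higher in BR-RF than in BR-S on day 4 (0.99 ± 0.19, adjusted p = 0.0134), and had -0.33 on day 7. The change between the days, -1.31, did not pass the test (adjusted p = 0.0745). *LYS14*, the transcriptional activator of the lysine genes, was lower in BR-RF than in BR-S on day 7 (-0.76 ± 0.17, adjusted p = 0.0151). The homocitrate synthases *LYS20* and *LYS21* were not called, with ratios of -0.49 to 0.42 and of -0.26 to 0.18. Without array 3, the calls of *LYS12* on day 4 (0.55) and in BR-F/BR-S (-0.54) and that of *LYS14* (-0.73) were lost, and those of *LYS12* were also lost without array 1 (0.49) and array 2 (-0.51).

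In the histidine pathway, BR-RF had higher levels of *HIS5* and *HIS6* than BR-F, and the other 5 genes were not called in this couple. *HIS5* encodes histidinol-phosphate aminotransferase, and *HIS6* an isomerase earlier in the pathway. The arrays of *HIS5* gave 1.08, 0.89 and 0.83 in BR-RF/BR-F on day 4 (0.91 ± 0.15, adjusted p = 0.00815), and 0.69, 0.61 and 1.16 on day 7 (0.90 ± 0.15, adjusted p = 0.00296). In BR-RF/BR-S they gave 0.83, 0.52 and 0.71 on day 4 (0.69 ± 0.15, adjusted p = 0.0302), and 0.25 ± 0.15 was not called on day 7. In BR-F/BR-S the ratios were -0.21 and -0.46.

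*HIS6* went the same way. The arrays gave 0.53, 0.91 and 0.78 on day 4 (0.75 ± 0.14, adjusted p = 0.0138), and 0.76, 0.90 and 1.04 on day 7 (0.93 ± 0.14, adjusted p = 0.00197). In BR-RF/BR-S they gave 0.48, 0.44 and 0.85 on day 4 (0.65 ± 0.14, adjusted p = 0.0288), and on day 7 the ratio was 0.45, not called. All arrays of *HIS5* and *HIS6* with BR-RF had BR-RF as the higher strain. *HIS4*, which encodes a multifunctional enzyme of the pathway, was instead lower in BR-RF than in BR-S on day 7 (-0.74 ± 0.22, adjusted p = 0.0468). Without array 3, the calls of *HIS5* in BR-RF/BR-F (0.99 on day 4, 0.65 on day 7), of *HIS6* on day 4 (0.72), of both genes in BR-RF/BR-S (0.67 for *HIS5*, 0.46 for *HIS6*) and of *HIS4* (-0.81) were lost, and that of *HIS4* was lost without array 1 (-0.57).

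*HIS5*, *HIS6*, *LYS12* and *SER33* all lie on the left arm of chromosome IX. The study reported that groups of genes raised in BR-RF lay in a region of this chromosome. The other genes of this arm had a median of 0.33 on day 4 and 0.34 on day 7 in BR-RF/BR-F and of 0.38 and 0.37 in BR-RF/BR-S, against 0.02 and 0.09 in BR-F/BR-S. The nearest measured neighbours of the 4 genes, up to 10 on each side, had medians of 0.21 to 0.49 in BR-RF/BR-F. On day 7, *HIS5*, *HIS6*, *LYS12* and *SER33* exceeded these neighbours by 0.63, 0.44, 0.69 and 0.93. On day 4, *HIS5*, *HIS6* and *LYS12* exceeded them by 0.70, 0.46 and 0.28, and *SER33*, at 0.05, lay below its neighbours at 0.42. The distances were smaller for *HIS5* and *HIS6* in BR-RF/BR-S on day 4, at 0.69 against 0.42 and 0.65 against 0.51. There *LYS12* had 0.53 against 0.24 of its neighbours, and *SER33* 0.73 against 0.49. In BR-RF/BR-S on day 7, the ratios of *HIS5* (0.25) and *SER33* (0.32) were close to the 0.29 and 0.32 of their neighbours, *HIS6* (0.45) lay above 0.32, and *LYS12* (0.19) lay below 0.52. How much of each ratio goes with the position was not tested. *LYS1*, on the right arm of the same chromosome, had 0.99 on day 4 in BR-RF/BR-S, while its neighbours had 0.39. On day 7 it had -0.33 in this couple, while its neighbours had 0.37.

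**Figure D3:**
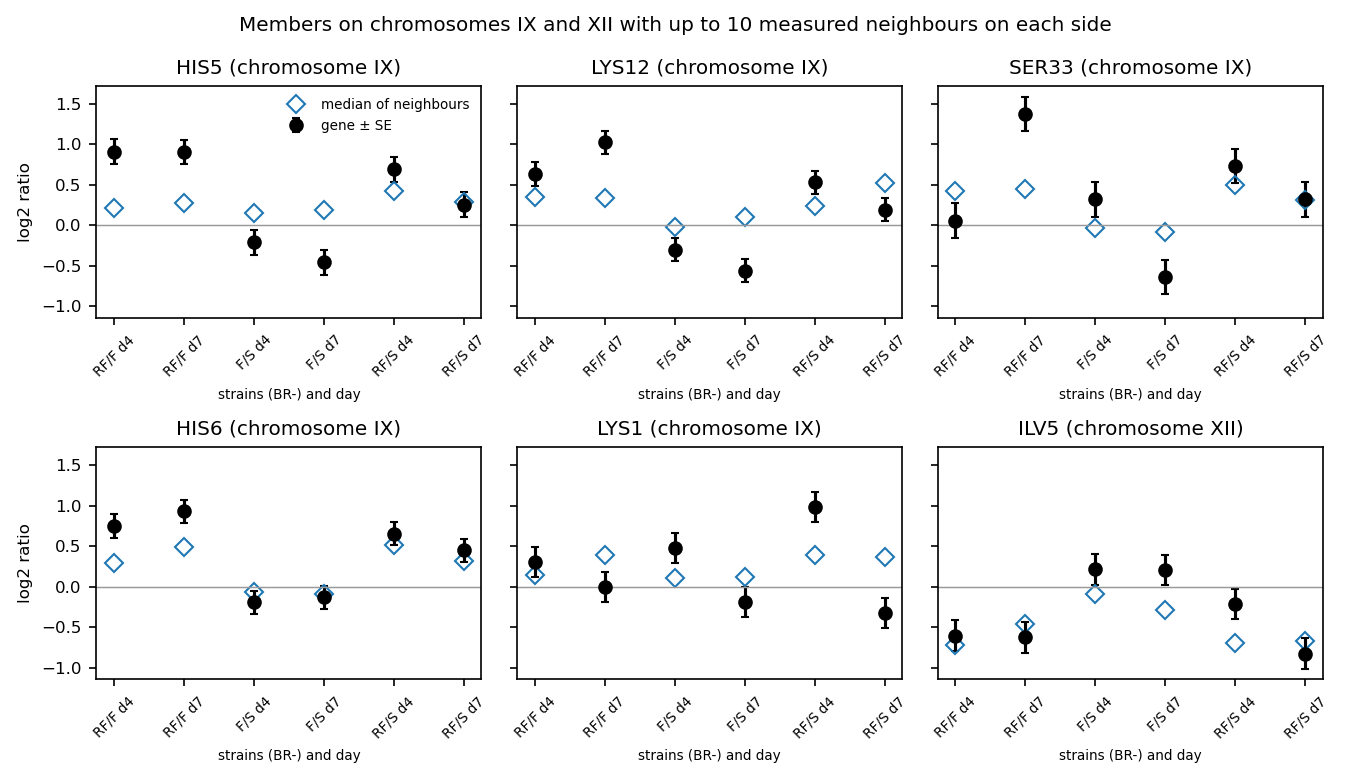
Log2 ratios (vertical axis) of the 5 members on chromosome IX and of *ILV5* on chromosome XII, as points with SE, and the median ratio of up to 10 measured neighbours on each side, as open diamonds, in the 3 couples on days 4 and 7 (horizontal axis). In BR-RF/BR-F on day 7, *SER33* lies at 1.38 and its neighbours at 0.45, and *ILV5* lies at -0.63 and its neighbours at -0.46.

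All 4 serine genes were called in at least 1 couple on day 7, against 1391 of the 5543 genes. None was called on day 4. On day 7, 2 of 4 were called in BR-RF/BR-F and 2 in BR-F/BR-S, against 15.1% and 11.1% of all genes. In BR-RF/BR-S 1 of 4 was called, against 16%. With 4 genes, these counts do not set the pathway apart from all genes. *SER33* and *SER3* encode the paralogous phosphoglycerate dehydrogenases that draw serine from glycolysis, *SER1* the aminotransferase and *SER2* the phosphatase that follow. In BR-RF/BR-F the 4 ratios lay between -0.15 and 0.05 on day 4 and between 0.35 and 1.38 on day 7, where 2 were called. *SER33* had the largest of them, with 1.45, 0.96 and 1.55 on the arrays of day 7 (1.38 ± 0.21, adjusted p = 0.00203), against 0.39, 0.46 and -0.31 on day 4 (0.05 ± 0.21). *SER3* had 0.35 on day 7, not called.

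*SER1* gave 0.05, 0.53 and 0.97 on the arrays of BR-RF/BR-F on day 7 (0.63 ± 0.17, adjusted p = 0.0348) and -0.75, -0.60 and -0.63 in BR-F/BR-S (-0.65 ± 0.17, adjusted p = 0.0372). BR-F was thus the lower strain in both couples. *SER3* was also lower in BR-F than in BR-S on day 7 (-0.62 ± 0.17, adjusted p = 0.043), and *SER33* had -0.64, not called. *SER2* was called only in BR-RF/BR-S on day 7 (0.66 ± 0.18, adjusted p = 0.0296). Without array 3, the calls of *SER1* (0.29 in BR-RF/BR-F, -0.68 in BR-F/BR-S), *SER3* (-0.67) and *SER2* (0.80) were lost, and so were that of *SER1* in BR-RF/BR-F without array 2 (0.51) and those of *SER3* (-0.46) and *SER2* (0.45) without array 1.

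Among the 5 threonine genes, only *HOM6*, the homoserine dehydrogenase shared with methionine synthesis, was called. In BR-RF/BR-F its arrays gave -0.01, -0.36 and -0.22 on day 4 (-0.20 ± 0.13) and 1.11, 0.96 and 0.96 on day 7 (1.00 ± 0.13, adjusted p = 0.000883). The arrays of the 2 days did not overlap. It was the only member whose ratio differed between the days, by 1.20 ± 0.18 (adjusted p = 0.0181 in limma), where 0.525% of all genes did (0.357% with a higher and 0.168% with a lower ratio on day 7). In the other couples no member passed that test, against 0.312% of all genes in BR-F/BR-S (0.12% higher, 0.192% lower) and 0.306% in BR-RF/BR-S (0.165% higher, 0.141% lower). At an unadjusted p under 0.05, 5 members differed between the days in BR-RF/BR-F, 9 in BR-F/BR-S and 10 in BR-RF/BR-S, against 9.7%, 8.82% and 15.7% of all genes. Among them were *SER33* in BR-RF/BR-F (1.32, adjusted p = 0.113) and *GLN1* and *GDH3* in BR-RF/BR-S (0.94 and 1.03, adjusted p = 0.105 and 0.138). The ratios of *HOM6* in BR-F/BR-S were 0.10 and -0.42, and in BR-RF/BR-S 0.09 and 0.41. *HOM2*, *HOM3*, *THR1* and *THR4*, which encode the other steps from aspartate to threonine, stayed between -0.48 and 0.49. On array 3 of each couple, the dye of a strain on day 7 was not its dye on day 4, and there dye and day cannot be told apart. Arrays 1 and 2 of day 7, which held both orientations, gave *HOM6* 1.11 and 0.96. Without array 3 of day 4 or of day 7, the difference of *HOM6* between the days was 1.18 or 1.24 and no longer called.

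**Figure D4:**
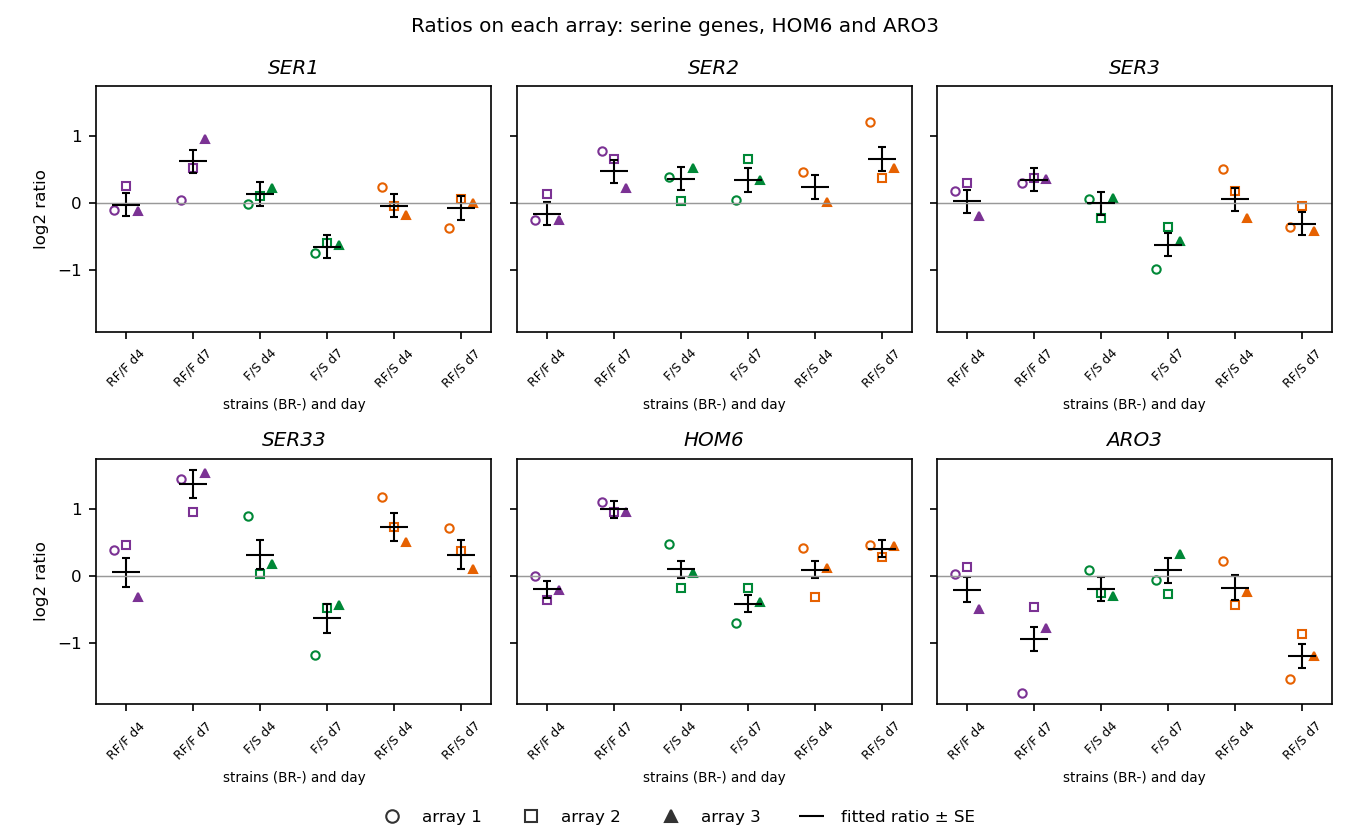
Log2 ratios (vertical axis) of *SER1*, *SER2*, *SER3*, *SER33*, *HOM6* and *ARO3* on each array of the 3 couples on days 4 and 7 (horizontal axis), drawn as circles, squares and triangles for arrays 1, 2 and 3, with bars for fitted ratios and their SE. *HOM6* lies at or below 0 on day 4 and between 0.96 and 1.11 on day 7 in BR-RF/BR-F.

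Of the 14 aromatic genes, 2 were called anywhere, and both on day 7. On that day, 1 of 14 was called in BR-RF/BR-F, against 15.1% of all genes. In BR-F/BR-S it was 0 of 14, against 11.1%, and in BR-RF/BR-S 2 of 12 tested, against 16%. On day 4, none was called by limma in any couple. The shares of all genes were 6.08%, 4.69% and 4.8% in BR-RF/BR-F, BR-F/BR-S and BR-RF/BR-S. At an unadjusted p under 0.05, 0, 1 and 1 aromatic genes passed in these couples. With so few genes, these counts do not set the pathway apart from all genes. *ARO3*, 1 of the paralogous DAHP synthases that open the shikimate pathway, was low in BR-RF on day 7. Its arrays gave -1.76, -0.47 and -0.78 in BR-RF/BR-F (-0.95 ± 0.18, adjusted p = 0.00583) and -1.54, -0.87 and -1.20 in BR-RF/BR-S (-1.20 ± 0.18, adjusted p = 0.0023). On day 4 the ratios of *ARO3* were -0.21 and -0.18. The other DAHP synthase, *ARO4*, was not called, with 0.07 and 0.21 in BR-RF/BR-F and -0.53 and -0.54 in BR-F/BR-S. *TRP4*, anthranilate phosphoribosyltransferase, was higher in BR-RF than in BR-S on day 7 (0.69 ± 0.20, adjusted p = 0.0402). The aromatic aminotransferases *ARO8* and *ARO9* stayed between -0.31 and 0.19 and between -0.24 and 0.43. Without array 3, the calls of *ARO3* in BR-RF/BR-S (-1.21) and of *TRP4* (0.55) were lost, and that of *TRP4* also without array 1 (0.68).

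*GCN4* was called in no couple. Its arrays gave 0.61, -0.70 and 0.55 in BR-RF/BR-F on day 4, and 1.13, 0.29 and 0.37 on day 7. In BR-F/BR-S they gave -0.97, -0.11 and -0.29 on day 4 and, on the 2 arrays that measured it on day 7, 0.49 and -1.20. In BR-RF/BR-S they gave -0.75, 0.44 and 0.48 on day 4, and 0.63, 0.55 and 0.21 on day 7. The arrays of 3 of the 6 comparisons lay on both sides of 0. The fitted ratios ran between -0.41 and 0.54 with an SE of 0.33, so the 95% intervals reached from -1.14 at the lowest to 1.27 at the highest and leave room for changes of more than 2-fold. Gcn4 is regulated mainly in translation, which RNA levels do not measure.

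No member was called in the same direction in both structured strains against BR-S, on either day. Over all genes, 33 were higher and 26 lower in both strains on day 4, and 70 and 105 on day 7. On these days 4067 and 4412 genes, and 56 and 53 members, were tested in all 3 couples. Genes called in the couples of a pattern were counted even where the remaining couple was not tested. The shares of all genes are low, and the absence of members is close to them. BR-F was above both other strains for 5 of 56 members on day 4 (*GDH1*, *GDH3*, *ASN1*, *BAT2* and *LEU4*), against 61 of all genes. On day 7 it was above both for 6 of 53 (*GDH1*, *GDH3*, *GLN1*, *ASN1*, *BAT2* and *LYS9*), against 135 of all genes. BR-RF was above both others for *HIS5* and *HIS6* on day 4, against 52 of all genes, and for no member on day 7, against 132. It was below both for no member on day 4, against 27 of all genes, and for *ARO3* and *ILV5* on day 7, against 123. BR-F was below both for no member on day 4, against 14 of all genes, and for *LYS12* and *SER1* on day 7, against 90. Counts of 2 members are too small to set the members apart from all genes. At an unadjusted p, the members that differed from BR-S the same way in both structured strains were *BAT1*, *LEU2*, *LYS1* (higher) and *ARO4* (lower) on day 4, and *GDH3*, *GLN1* (higher) and *LYS14* (lower) on day 7. Of these, the study lists *BAT1* on day 4 and *GDH3* on day 7 as raised in structured colonies, at its own thresholds. As the couples were hybridised separately, BR-RF/BR-S could be set against the sum of the other couples. The absolute difference had a median of 0.20 on day 4 and 0.17 on day 7 over the members, and of 0.18 on both days over all genes. Single members missed by as much as -0.71 on day 4 (*LEU4*) and -1.15 on day 7 (*ILV6*, followed by *LYS9* at -0.79).

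Genes that act next to these pathways were counted in the same way. Of all genes, 6.08% and 15.1% were called in BR-RF/BR-F on days 4 and 7. The shares were 4.69% and 11.1% in BR-F/BR-S, and 4.8% and 16% in BR-RF/BR-S. With so few genes in each list, the counts below do not set these lists apart from all genes. Of the 16 connected steps (aminotransferases, organic acid carriers, and proline, glycine and nicotinate enzymes among them), 2 were called lower in BR-RF/BR-F on day 4 and 1 on day 7, and 3 were higher in BR-F than in BR-S on day 7. In BR-RF/BR-S, 1 of 14 tested was lower on day 4 (*ALT1*, -0.72) and 2 of 13 were higher on day 7 (*ARO10*, a decarboxylase of the Ehrlich pathway, at 0.74, and *BNA1*). *BNA1*, an enzyme of the kynurenine route from tryptophan to nicotinate, had 1.51 ± 0.32 (adjusted p = 0.0113) in BR-RF/BR-S and 1.78 ± 0.32 (adjusted p = 0.00606) in BR-F/BR-S on day 7, and so was above BR-S in either structured strain. *CHA1*, the serine and threonine deaminase, had 1.44 in BR-F/BR-S. The mitochondrial carrier *ODC1* was among both, at -0.67 ± 0.17 (adjusted p = 0.0455) on day 4 in BR-RF/BR-F and at 1.11 ± 0.17 (adjusted p = 0.00306) on day 7 in BR-F/BR-S. The alanine aminotransferases *ALT1* and *ALT2* were the other 2, with -0.82 on day 4 and -1.53 on day 7 in BR-RF/BR-F. Of the aminoacyl-tRNA synthetases of these amino acids, 3 of 13 tested were above BR-F in BR-RF on day 7 (*VAS1*, *WRS1* and *FRS1*, at 2.03, 0.72 and 0.79), with a median of 0.33. In the other couples, *GLN4* was lower in BR-F/BR-S on day 7 (-0.60), and *WRS1* on day 4 (0.89) and *VAS1* on day 7 (1.69) were higher in BR-RF/BR-S. The 17 regulators on the array had *GCN2*, *LEU3*, *GLN3* and *GAT1* among them. On day 4, 15, 13 and 15 of them were tested in BR-RF/BR-F, BR-F/BR-S and BR-RF/BR-S. None was called by limma, with 1, 0 and 1 at an unadjusted p under 0.05. *BAS1*, an activator of histidine and purine genes, had a lower level in BR-RF than in BR-F colonies on day 7 (-0.97 ± 0.19), and its partner *PHO2* was lower in BR-RF than in BR-S (-1.08 ± 0.30), as was the initiation factor gene *GCD11* (-0.55 ± 0.16).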

How the data were processed

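RNA of BR-RF, BR-F and BR-S colonies was measured on 18 two-colour arrays. The deposited array files hold median Cy3 and Cy5 intensities of 13056 spots, which the authors had obtained with TIGR Spotfinder and from which the local background was already subtracted. The deposited value table holds log2 ratios after the authors' LOWESS in MIDAS and served as an alternative, after its 48 print blocks had been put in probe order. Spots marked poor or without positive signal were left out, partly saturated spots were kept, each array was normalised by loess (span 0.3), the spots of a gene were averaged, and arrays 1 and 2 were averaged to biological replicate 1. A mean for each couple and day was estimated from the 12 replicate ratios with limma 3.58.1 in R 4.3.3 (6 residual and 4.61 prior degrees of freedom), two-sided, with Benjamini-Hochberg adjustment within each couple and day. The median SE was 0.19. Precision is limited by how many arrays there were. Tested on simulated data, 13% to 27% of 1.5-fold and 73% to 84% of 2-fold changes were called.

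The members and the lists beside them were chosen with earlier results of these data known. Named with values were members called in any couple, *GCN4* and 8 paralog pairs, and arrays were given for members called in 2 or more. *SER33*, *HOM6*, *ILV6* and the genes of the other lists were given in more detail after their values were seen. The sources used here name no build for the arrays. Gene names and neighbours came from the R64 annotation. Promoter sequences were not analysed here. The files were not used to compare levels between genes. More biomass was extracted from BR-F and BR-RF than from BR-S, which cannot be told apart from strain. Tables and figures used Python 3.11.15, pandas 2.3.3, scipy 1.17.1 and matplotlib 3.10.9. Alternatives changed the normalization, background, spot filters, the replicate unit, the fit, the threshold and the arrays included. A dye term and a filter for unsaturated spots were added after seeing the data.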

Additional observations from a re-analysis of the deposited data

Results flagged for a closer look

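*HOM6*, homoserine dehydrogenase, stood out because its ratio of BR-RF/BR-F differed between the days by test. The ratio was 1.00 on day 7 and -0.20 on day 4, a difference of 1.20 ± 0.18 (adjusted p = 0.0181 in limma). All 3 arrays of day 7 were above all 3 arrays of day 4. Over 16 alternatives the difference ran between 1.11 and 1.51 with adjusted p between 0.00318 and 0.107, and 3 of them, those without array 3 of either day and that with a dye term, ended the call.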

How the results depend on the processing

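No call of a member changed its direction under any alternative. Of the 49 calls, 15 held wherever they could be tested: these were *HIS6*, *BAT2*, *LYS12*, *ARO3*, *SER33*, *HOM6*, *GDH1* and *GDH3* in BR-RF/BR-F on day 7, *BAT2*, *ASN1* and *GDH1* in BR-F/BR-S on day 4, and *ASN1*, *GDH1*, *GDH3* and *GLN1* in BR-F/BR-S on day 7. With unsaturated spots alone, 5 calls, those of *GDH1* and *GLN1* on day 7 among them, could not be tested and 3 of 44 were lost. Without array 3, 31 calls were lost, against 6 without array 1 and 9 without array 2. That setting leaves 1 biological replicate, assumed to vary like the rest. Other settings ended 16 calls with a dye term, 16 with separate fits, 13 with the normexp background, 11 with median centring, 8 with print-tip loess, 5 without dim spots, 2 with the deposited value table, and 1 each with 3 arrays as replicates and with the study's thresholds. Besides *ILV5*, ratios moved by over 1.5 times with print-tip loess (*HIS5* 0.57 and *SER1* 0.38 in BR-RF/BR-F on day 7, *SER1* -0.42 in BR-F/BR-S), without dim spots (*SER2* 0.41) and with normexp (*HIS6* 1.30 and 1.78 in BR-RF/BR-F and 1.05 in BR-RF/BR-S, *GDH3* -2.41 in BR-RF/BR-F on day 7, *TRP4* 1.23, *SER2* 1.11), and those of *SER1* and of *SER2* without dim spots were no longer called. Counts of members called in BR-RF/BR-F on day 4 (9) were 5 with median centring, 5 with normexp, 1 with separate fits and 14 with the study's thresholds (1.5-fold and an unadjusted p). In BR-F/BR-S on day 4 (5) they were 3 with median centring, 8 with 3 arrays as replicates, 13 with 1 effect per strain and 10 with those thresholds, and on day 7 (9) 20 with 1 effect per strain. In BR-RF/BR-S on day 4 (4) they were 2 with normexp, 8 with 3 arrays as replicates, 9 with 1 effect per strain, 0 with separate fits, 7 with those thresholds and 1 with the dye term, and on day 7 (7) 17 with 1 effect per strain, 14 with separate fits and 3 with the dye term. Members differing between days numbered 2 (print-tip loess) and 0 (dye term) in BR-RF/BR-F, 1 (value table) in BR-F/BR-S, and 1 (value table) and 3 (3 arrays as replicates) in BR-RF/BR-S. Leaving out 1 array at a time, the counts ran from 0 to 9 and 11 to 15 in BR-RF/BR-F on days 4 and 7, from 3 to 6 and 4 to 11 in BR-F/BR-S, from 1 to 5 and 0 to 14 in BR-RF/BR-S, and from 0 to 1, 0 to 0 and 0 to 2 for the differences between days. The medians of the members ran from -0.09 to 0.03 and -0.09 to 0.02 in BR-RF/BR-F, 0.070 to 0.23 and -0.0069 to 0.060 in BR-F/BR-S, and -0.061 to 0.14 and -0.15 to -0.0053 in BR-RF/BR-S. The median in BR-F/BR-S on day 4 (0.13) was 0.075 with print-tip loess, 0.093 in the value table and 0.11 with 3 arrays as replicates. On day 7 (-0.05) it was 0.065 without dim spots, -0.0033 with 3 arrays as replicates and 0.026 with 1 effect per strain, and in BR-RF/BR-S on day 7 (-0.11) it was 0.0018 with print-tip loess. Deviations of the replicates correlated at -0.54 to 0.32 over 15 pairs of couples, 3 of them above 0.1, and the replicate numbers were not treated as pairs. Array 3 had a single dye orientation, which differed between couples and days. Dye effects thus enter these correlations, and they cannot decide whether the samples were paired. With the replicate block, 7 of 49 calls were lost, and the members called in BR-RF/BR-S on day 4 fell to 2. The cause of these differences was not tested. Depth in the sense of signal over background limited some arrays: its median over the members' spots was 1.03 to 4.26 per array.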
